A study of Mus musculus with 11 samples.

Results

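Control line 4 is 1 clone of WFU3, a mouse prostate epithelial stem cell line, and it was compared with the 2 other control lines of the study across all genes. The comparison took in 5 of the 11 RNA-seq libraries, chosen by their labels: 3 libraries of line 4 and 1 library from each of the other control lines. All 5 carried a non-targeting control hairpin delivered by lentivirus, and none carried a hairpin against Map3k7, which encodes the kinase TAK1. The first line 4 library held the GFP-marked control hairpin and a second control hairpin marked by puromycin resistance, at passage 52. In the others the second hairpin targeted Chd1, a chromatin-remodelling ATPase gene: construct 96526 at passage 52 and construct 96528 at passage 50. Line 5 held the GFP-marked and the puromycin-marked control hairpins at passage 52. The remaining line had no number, held control hairpins marked puro and neo, and was at passage 30. By the treatment protocol, clones 4 and 5 were picked with cloning cylinders, and the protocol does not describe the puro/neo line as a clone. The 6 libraries outside the comparison came from Map3k7 knockdown clones 1 and 7.

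The 3 line 4 libraries are branches of 1 clone and not independent control lines. The labels do not say that any libraries came from separate cultures, so the p-values measure only the spread between these samples. Chd1 hairpins were present in 2 of the 3 line 4 libraries and in neither of the other lines, so the clone and the Chd1 hairpins cannot be told apart in a mean over line 4. For that reason the control hairpin library of line 4 is given beside the other values throughout.

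A clone grown from 1 cell passes on whatever gene copies and stable expression states that cell had, and clones of an immortal line often differ in both. Prostate epithelium is built of basal cells, which carry keratin 5 and keratin 14, and luminal cells, which carry keratin 8 and keratin 18, held together by desmosomes and by tight and adherens junctions. The Cdkn2a and Cdkn2b genes lie side by side next to Mtap and encode inhibitors of cell cycle entry, and the whole stretch is often lost together in tumours and in cultured lines. Interferon response genes are a set of antiviral genes switched on through interferon receptors and IRF factors.

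Both targeted genes moved in the direction of the labels, Map3k7 by more than Chd1. Map3k7 (chromosome 4, 31964097 to 32023467 in GRCm38) measured 141, 142 and 144 CPM (read counts scaled to library size) in line 4, in the order control hairpin, Chd1 96526 and Chd1 96528, a sequence used for all line 4 values below. It measured 129 CPM in the puro/neo line and 144 CPM in line 5, against 40.3 to 44.3 CPM in the Map3k7 clones. Chd1 (chromosome 17, 15704967 to 15772610) measured 201, 150 and 157 CPM in line 4 and 221 and 210 CPM in the puro/neo line and line 5. Both Chd1 hairpin libraries were below every other control library, and the control hairpin library of line 4 lay just under the other lines. With Chd1 96526 and 96528, Chd1 measured 204 and 168 CPM in Map3k7 clone 1 and 200 and 195 CPM in clone 7. With their control hairpins the clones had 227 and 246 CPM, so Chd1 96526 in clone 1 lay above the control hairpin library of line 4. Neither gene passed the test between line 4 and the other lines (log2 0.06, adjusted p = 0.657 for Map3k7, and log2 -0.35, adjusted p = 0.144 for Chd1, edgeR quasi-likelihood test), although Chd1 did without the control hairpin library of line 4 (log2 -0.50, adjusted p = 0.0274).

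Total counts ran from 14846114 to 18859722 per library. All 5 libraries expressed epithelial genes such as Krt8, Krt14, Cdh1 and Epcam. Krt5, the basal keratin, was near 0 in line 4 (0.0534, 1.99 and 0.066 CPM) and in line 5 (0.113 CPM) but stood at 50.8 CPM in the puro/neo line. The puro/neo library also stood apart in endothelial markers: Pecam1 at 17.7 CPM, Cdh5 at 18.9 CPM and Emcn at 12.8 CPM, where the other 4 libraries had at most 0.449, 0.113 and 0 CPM. The summed level of 9 endothelial markers was 60.4 CPM in the puro/neo line and between 1.32 and 1.92 CPM in the others. Immune markers summed to 1.67 to 2.59 CPM in all 5 libraries. Fibroblast markers summed to 51.2, 139 and 133 CPM in line 4, 104 CPM in the puro/neo line and 27.2 CPM in line 5, with Lum and Dpt at 0 in all 5 and 6 of the 12 markers under 1 CPM throughout. Because the puro/neo library differs in this way, counts or medians are also given without it. In bulk RNA, fewer cells of a type and less RNA per cell cannot be told apart.

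Of 13672 genes tested, 889 were higher in line 4 (6.50%) and 976 were lower (7.14%) at an adjusted p under 0.05 (edgeR quasi-likelihood F-test on rounded expected counts, Benjamini-Hochberg adjustment). Among the called genes 428 were at least 2-fold higher and 348 at least 2-fold lower, and 47 and 61 differed at least 8-fold. All 3 line 4 libraries lay above both other lines in 3672 genes (26.9% of those tested) and below both in 3526 (25.8%). All 1865 called genes were among them. The separation and the test rest on the same 5 values, so the one is no check of the other. A further 1022 genes (7.48%) had every line 4 library outside the range of the other lines, but not all on the same side.

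In the called genes the control hairpin library lies on the side of its line by construction, since it is part of the fit, and it lay nearer to the other lines than the Chd1 libraries did. The median log2 departure from the mean of the 2 other lines, over the genes called higher, was 0.77 with the control hairpin and 0.99 and 1.04 with the Chd1 hairpins. Over the genes called lower it was -0.62, -0.79 and -0.93. Both Chd1 libraries lay further from the other lines than the control hairpin library in 1418 of the 1865 called genes (76%) and nearer in 120. In the remaining 327 the control hairpin library lay between the Chd1 libraries or tied with one. Among the 5333 separated genes that were not called, both Chd1 libraries lay further out in 3275. Set against the other lines alone, with a mean of its own, the control hairpin library differed in 10 genes (0.0731% of those tested), and 2106 genes had an unadjusted p under 0.05. In that fit its arm is 1 library, assumed to vary like the Chd1 pair and the other lines, which supply all of the spread. The Chd1 libraries differed from the control hairpin library of line 4 in 0 genes (0.00%) by edgeR, with 819 genes at an unadjusted p under 0.05 and 71 called by DESeq2.

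The number of calls depended on which libraries entered. It was 4 without the Chd1 96526 library of line 4 and 66 without the Chd1 96528 library, but 2301 without the control hairpin library. It was 1369 without the puro/neo line and 1219 without line 5, fits in which the lone other line is assumed to vary like the line 4 libraries. Of the 1865 calls, 921 were called again without the puro/neo line, 837 without line 5, and every call that could still be tested (at least 1862) kept its direction when any 1 library was left out. Mtap, Fstl1, Cbr2 and Mxra8 are the 4 genes still called without the Chd1 96526 library. No other call named below held in that fit.

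Pairs of libraries give the same picture as plain counts. At least 2-fold apart (on CPM + 0.5) were 854 genes between the puro/neo line and line 5. Between the control hairpin library of line 4 and these lines they were 1021 and 1110. Within line 4 the control hairpin library was that far from the Chd1 96526 library in 330 genes and from the Chd1 96528 library in 539, and the Chd1 libraries were apart in 190. The control hairpin library of line 4 thus stood somewhat further from each other line than those lines stood from each other, a difference with no replicate lines to test it.

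The 10 genes called for the control hairpin library alone, a single library with its spread taken from the other groups, were Fstl1, Mtap, Cbr2, Ifi27, Ltbp2, Odc1, Glul, Cdon, Il1rn and Dclk1, all of them also called over the 3 libraries. Fstl1 encodes a secreted follistatin-like glycoprotein of mesenchyme (chromosome 16, 37776873 to 37836514). It measured 2.46, 3.14 and 2.77 CPM in line 4 and 53.2 and 46.2 CPM in the puro/neo line and line 5. Every line 4 library was more than 10-fold below both other lines, with a log2 fold change of -4.15 ± 0.15 (SE, adjusted p = 0.000734, edgeR). The 6 libraries of the Map3k7 clones were lower still, at 0.696 to 1.42 CPM, so it was the puro/neo line and line 5 that stood apart from the rest of the study in Fstl1. Cbr2, a carbonyl reductase gene (chromosome 11, 120729489 to 120732114), stood at 206, 172 and 211 CPM against 26.7 and 30.3 CPM. It was high in all 3 line 4 libraries whichever second hairpin they held (log2 2.78 ± 0.14, adjusted p = 0.00227, edgeR), and the Map3k7 clones were at 8.09 to 20.3 CPM. Odc1, which makes the polyamine putrescine, measured 310, 224 and 207 CPM against 1037 and 1107 CPM, lower in every line 4 library (log2 -2.12 ± 0.18, adjusted p = 0.0135, edgeR). Dclk1, a doublecortin-like kinase gene, measured 197, 367 and 381 CPM against 64.6 and 60.1 CPM. Cdon, a coreceptor for Hedgehog ligands, measured 136, 231 and 227 CPM against 44.7 and 49.7 CPM. In both, the control hairpin library lay between the other lines and the Chd1 libraries. Without the Chd1 96526 library Odc1, Dclk1 and Cdon were not called.

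The 12 largest rises and the 12 largest falls in line 4 were picked by fold change among called genes whose higher group averaged 5 CPM or more. The rule also asked that all 3 line 4 libraries lie on the same side of both other lines. The rises described here, 11 of the 12, were Pcdh10, Kank4, Cadps2, Itga9, Ccrl2, Il1rn, Rtp4, Ifi44, C4b, Glul and Lrg1. Pcdh10, a protocadherin gene, had 36, 190 and 119 counts in line 4 and 0 and 1 in the puro/neo line and line 5, a pooled ratio of 231 (95% counting interval 41.2 to 9150). Glul, the glutamine synthetase gene (chromosome 1, 153899944 to 153909723), measured 86.4, 150 and 196 CPM against 13.0 and 9.79 CPM (log2 3.67 ± 0.39, adjusted p = 0.0144, edgeR). Il1rn, which encodes the interleukin-1 receptor antagonist, measured 36.1, 80.7 and 98.1 CPM against 5.25 and 3.96 CPM (log2 3.96 ± 0.49, adjusted p = 0.0144, edgeR). In all 12 rises the Chd1 libraries lay further from the other lines than the control hairpin library did. C4b, a complement component gene, stood at 3.15, 12.9 and 9.38 CPM against 0.843 and 0.396 CPM. Without the puro/neo line 9 of the 12 rises were still called (not C4b, Ifi44 and Pcdh10), and without line 5 the same except Cadps2. Without the Chd1 96528 library Glul alone was called, and without the Chd1 96526 library 0 were.

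**Figure D1:**
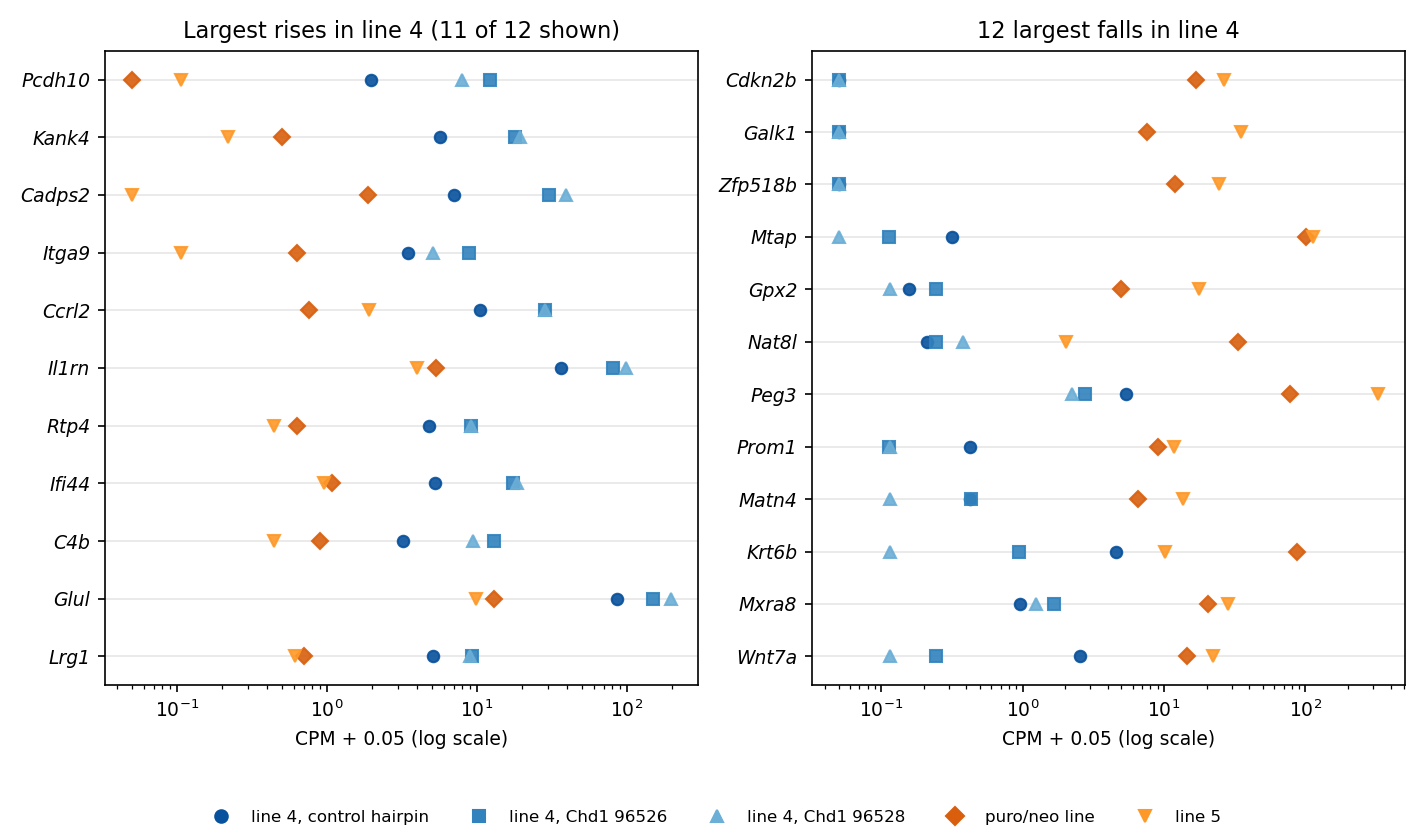
CPM plus 0.05 on a log axis for 11 of the 12 largest rises (left) and the 12 largest falls (right) in line 4, with 1 point per library, blue for line 4 and orange for the other control lines. Every blue point lies on the same side of both orange points because the genes were picked for that. For Il1rn the line 4 libraries sit at 36.1 to 98.1 CPM and the other lines at 3.96 and 5.25 CPM.

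The largest falls were Cdkn2b, Galk1, Zfp518b, Mtap, Gpx2, Nat8l, Peg3, Prom1, Matn4, Krt6b, Mxra8 and Wnt7a, and 3 of them had no count in any line 4 library. Cdkn2b, which encodes the cyclin-dependent kinase inhibitor p15, had 0 counts in line 4 against 260 and 467 in the puro/neo line and line 5, at least 362-fold lower. Galk1, the galactokinase gene (chromosome 11, 116008457 to 116012719), had 0 against 116 and 617, at least 365-fold lower. Zfp518b, a zinc finger gene (chromosome 5, 38668484 to 38684826), had 0 against 184 and 433, at least 307-fold lower. These bounds take 3 counts over the 3 line 4 libraries as the floor and cover counting error only. Gpx2, a glutathione peroxidase gene, measured 0.107, 0.192 and 0.066 CPM against 4.93 and 17.5 CPM, and Matn4, a matrilin gene, 0.374, 0.385 and 0.066 CPM against 6.49 and 13.5 CPM. Mxra8, a matrix remodelling gene, stood at 0.908, 1.60 and 1.19 CPM against 20.4 and 28.4 CPM (log2 -4.31 ± 0.28, adjusted p = 0.00866, edgeR), with the Map3k7 clones between them at 2.56 to 6.65 CPM. The other lines were themselves far apart for Nat8l, at 33.1 and 1.98 CPM, and for Krt6b, at 87.7 and 10.1 CPM. Krt6b shares reads with Krt6a, and the counting divides such reads, so its level is uncertain. Without the puro/neo line 11 of the 12 falls were still called (not Krt6b), as were 11 without line 5 (not Wnt7a). Without the Chd1 96528 library 6 were called, and without the Chd1 96526 library Mtap and Mxra8.

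The absence of Cdkn2b counts took in its neighbours. Mtap, which encodes an enzyme of methionine salvage, had 5, 1 and 0 counts in line 4 and 1551 and 1994 in the puro/neo line and line 5 (log2 -9.70 ± 0.38, adjusted p = 0.000734, edgeR). Cdkn2a, which encodes p16 and ARF, had 0 counts in all 3 line 4 libraries and 61 and 17 in the other lines. Gm12602 and Gm12606, noncoding transcripts of the same stretch, also had 0 in line 4, against 12 and 23 and against 23 and 118. From Gm12602 (start 89100664) to Cdkn2b (end 89311039) on chromosome 4 no tested gene had more than 5 counts in a line 4 library. The nearest well-expressed gene on the Mtap side was present: Klhl9, at 88718292 to 88722465, had 1486, 1386 and 1566 counts in line 4 and 988 and 1242 in the other lines. Focad had 351, 261 and 281 counts against 325 and 438. Beyond Cdkn2b the nearest tested genes were the predicted Gm12671, a processed pseudogene 2540 kb away, and Gm12666. They measured 93.8, 122 and 202 CPM against 25.9 and 41.6 CPM, and 4.22, 3.01 and 4.56 CPM against 4.02 and 4.13 CPM. Apart from predicted genes the nearest was Tusc1, at 93334138 to 93335511, at 6.78, 6.67 and 7.86 CPM against 5.45 and 6.05 CPM. Line 4 was thus at or near 0 in this stretch with each second hairpin, while Klhl9, Focad and Tusc1 were not. Between Klhl9 and Gm12602 the predicted genes were low in all 5 libraries and did not move alike. Gm13283 had 3, 2 and 4 counts against 15 and 12 (adjusted p = 0.0535, edgeR), and Gm13285 9, 8 and 3 against 11 and 19. Gm26867 had 9, 5 and 12 counts against 3 and 7. Gm26566, which overlaps the end of Klhl9, had 104, 104 and 104 against 107 and 98. Where the low stretch ends on the Mtap side is therefore not fixed by these counts. Its other end is open too, between Cdkn2b and Gm12671. These are RNA counts, and whether the DNA of the stretch was lost was not tested. The 6 libraries of the Map3k7 clones had 286 to 633 counts of Cdkn2b. Without the puro/neo line the call for Cdkn2a was lost (adjusted p = 0.0532), and without the Chd1 96526 library only Mtap was called there.

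**Figure D2:**
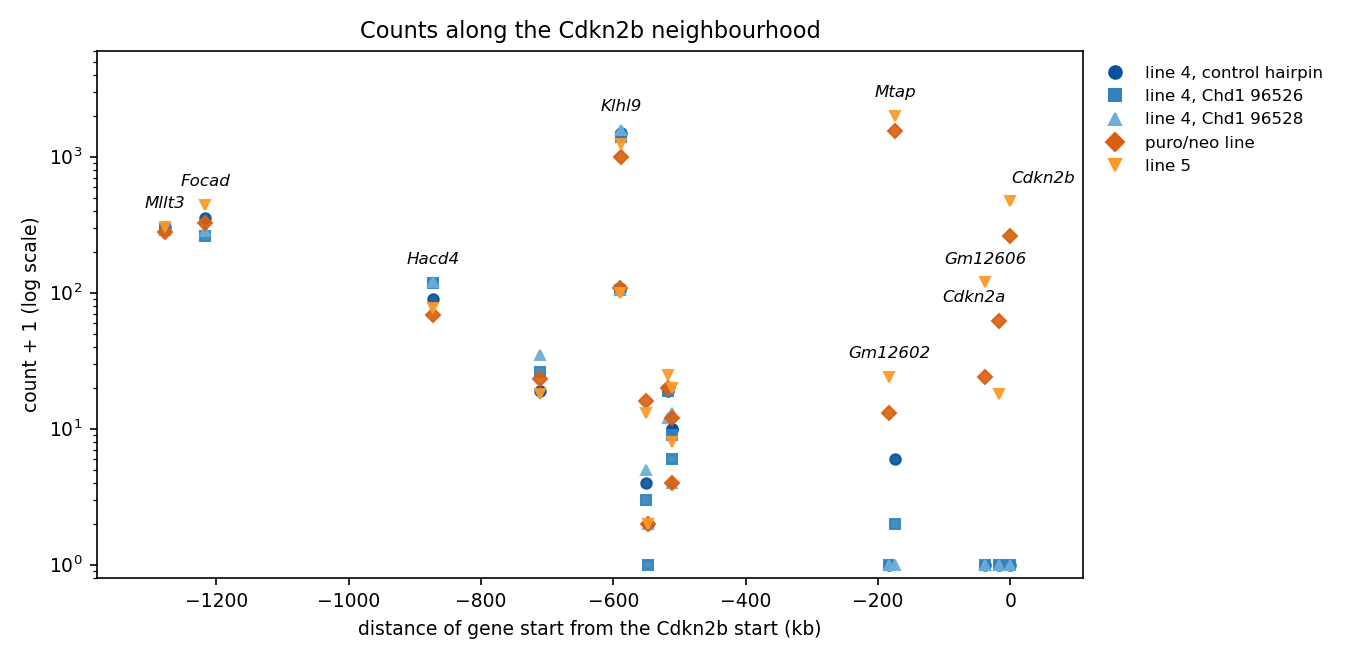
Count plus 1 on a log axis for genes around Cdkn2b, placed by the distance of each gene start from the Cdkn2b start in kb, with 1 point per library, blue for line 4 and orange for the other lines. The blue points fall to the bottom of the axis from Gm12602 to Cdkn2b, where Mtap has at most 5 counts in line 4. They lie above the orange points at Klhl9 and overlap with them at Focad.

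Galk1 and Zfp518b were single genes. The neighbours of Galk1 were present in line 4: H3f3b, a histone H3.3 gene, had 11739, 10903 and 11542 counts against 9713 and 12395, and Itgb4 had 11514, 6121 and 4047 against 13455 and 13690. Galk1 was also low outside line 4, with 1, 1 and 3 counts in the libraries of Map3k7 clone 7 and 64 to 99 in those of clone 1, so its absence was not particular to line 4. The neighbours of Zfp518b were present too, with Wdr1, an actin regulator, at 6111, 4991 and 4856 counts against 5642 and 6552, and the Map3k7 clones had 113 to 361 counts of Zfp518b itself.

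Genes of 3 chromosomes were shifted down in line 4, and on 2 of them a Map3k7 clone had the same shift. On chromosomes 5, 10 and 16 the median log2 fold change was -0.23 (914 genes), -0.27 (608 genes) and -0.22 (400 genes), against 0.04 over the other chromosomes. Of the 1922 tested genes on these chromosomes, 363 were called lower (18.9%) and 61 higher (3.17%). Elsewhere 596 of 11585 were called lower (5.14%) and 821 higher (7.09%). All 3 line 4 libraries lay below both other lines in 47.3% of genes there and in 22.1% elsewhere. The control hairpin library shared the shift: its chromosome medians were -0.19, -0.21 and -0.22 on chromosomes 5, 10 and 16, beside -0.23, -0.29 and -0.18 with Chd1 96526 and -0.24, -0.26 and -0.16 with Chd1 96528. The puro/neo line and line 5 stayed within 0.02 of their mean on all 3 chromosomes. The 3 libraries of Map3k7 clone 7, measured against the same mean, had medians of -0.29 to -0.26 on chromosome 5 and -0.30 to -0.29 on chromosome 16, so these shifts were not particular to line 4. On chromosome 10 they had 0.05 to 0.07, and clone 1 stayed between -0.06 and 0 on all 3. Leaving out any 1 library kept the line 4 medians between -0.29 and -0.21. The other control lines differed in turn on chromosome 14, with medians of 0.16 and -0.16 for the puro/neo line and line 5, and the line 4 median there turned from -0.08 to 0.14 without the puro/neo line.

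**Figure D3:**
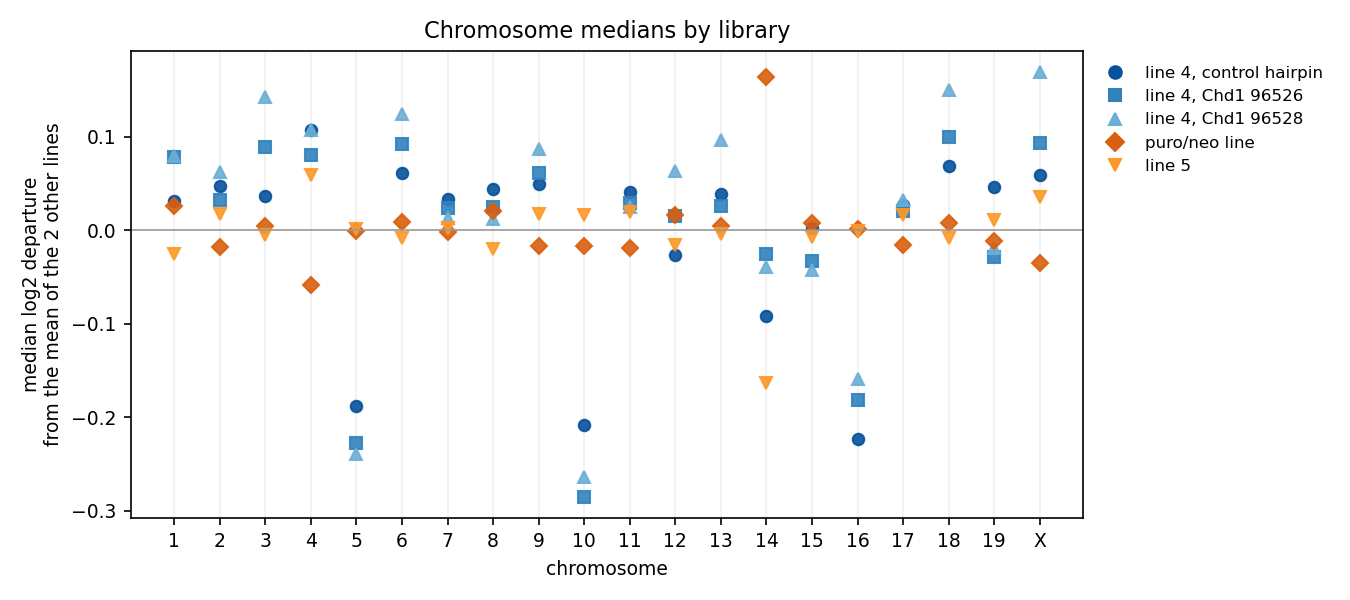
Median over the tested genes of each chromosome of the log2 departure from the mean of the 2 other control lines, with 1 point per library, blue for line 4 and orange for the other lines. The 3 blue points lie together between -0.29 and -0.16 on chromosomes 5, 10 and 16, and the orange points part on chromosome 14.

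Epithelial junction genes were the group with the most falls. Of 42 tight and adherens junction genes tested, 28 fell and 1 rose in line 4, and 31 lay below both other lines in all 3 libraries. The shares over all genes tested were 7.14% lower, 6.50% higher and 25.8% below both. The median log2 fold change of the list was -1.24, against 0.01 over all genes tested. Occludin, a tight junction membrane protein encoded by Ocln, measured 8.01, 6.73 and 3.83 CPM against 24.3 and 31.4 CPM (log2 -2.16 ± 0.30, adjusted p = 0.0167, edgeR). E-cadherin, encoded by Cdh1, stood at 255, 204 and 164 CPM against 442 and 472 CPM (log2 -1.14 ± 0.18, adjusted p = 0.0201, edgeR). Cldn12, a claudin gene, was alike in the line 4 libraries at 23.8, 22.9 and 23.8 CPM and lower than in the others at 41.8 and 46.8 CPM. Cldn4 measured 52.2, 56.7 and 18.2 CPM against 180 and 268 CPM, so that 1 Chd1 library was well below the rest of its line. Among regulators of these genes Ovol1, a transcription factor that holds cells epithelial, was lower at 2.19, 1.99 and 1.52 CPM against 6.16 and 8.20 CPM. The riser was Ehf, an epithelial ETS factor gene, at 286, 531 and 591 CPM against 134 and 131 CPM (log2 1.83 ± 0.31, adjusted p = 0.0225, edgeR). The list median of the control hairpin library was -0.90, beside -1.21 and -1.46 in the Chd1 libraries and 0.13 to 0.30 in the Map3k7 clones. Members called lower numbered 23 without the puro/neo line, 20 without line 5, 6 without the Chd1 96528 library and 0 without the Chd1 96526 library.

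The promoters of junction genes are shown because these genes moved together and because ZEB factors, 2 of which rose, are known to bind the letters CACCTG. The sequences are the 150 bases before the start of 3 called junction genes whose promoters hold that motif on either strand, taken in order of p. They come from RefSeq (GRCm38.p6) and run 5′ to 3′ on the gene's own strand, with matches to CACCTG in capitals.
Rab25, chr3:88548280-88548429, minus strand: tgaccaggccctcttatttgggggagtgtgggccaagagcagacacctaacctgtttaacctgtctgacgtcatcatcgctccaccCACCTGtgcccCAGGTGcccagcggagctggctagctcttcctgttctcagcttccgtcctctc
Ocln, chr13:100552499-100552648, minus strand: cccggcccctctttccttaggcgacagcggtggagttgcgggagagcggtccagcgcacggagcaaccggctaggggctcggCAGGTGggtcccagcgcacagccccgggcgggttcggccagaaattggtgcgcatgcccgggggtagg
Ap1m2, chr9:21312334-21312483, minus strand: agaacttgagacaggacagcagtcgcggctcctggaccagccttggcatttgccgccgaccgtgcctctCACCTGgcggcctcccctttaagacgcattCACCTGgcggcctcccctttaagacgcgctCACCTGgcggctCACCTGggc
Over the 250 bases before the start, searched on both strands, the motif was present in 15 of 27 junction genes with a promoter entry (55.6%) and in 11 of the 18 called ones (61.1%). It was present in 18.2% of 9930 tested genes and in 19.4% of all 27025 genes with an entry, a gene counting once if any of its listed starts held it. It was present in 24.2% of genes called lower and 17.6% of genes called higher. A match is a description of letters and shows no binding.

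Part of the desmosome and luminal keratin genes fell in line 4 as well. Of 12 desmosome genes 6 fell and 0 rose, with a median of -0.96, and 11 lay below both other lines. Over all genes tested 7.14% were called lower and 25.8% lay below both. Dsp, which encodes the desmosomal linker desmoplakin, measured 339, 202 and 179 CPM against 727 and 678 CPM (log2 -1.55 ± 0.26, adjusted p = 0.0228, edgeR). Ppl, a periplakin gene, measured 128, 93.9 and 83.4 CPM against 252 and 255 CPM. Every line 4 library lay below both other lines in these genes, lowest with Chd1 96528. Of 10 luminal keratins and markers 5 fell and 0 rose, with a median of -1.50. Krt18 measured 649, 502 and 404 CPM against 1901 and 1734 CPM (log2 -1.81 ± 0.19, adjusted p = 0.0144, edgeR), and its partner Krt8 1362, 880 and 820 CPM against 3186 and 2536 CPM. Prom1, a stem and progenitor surface marker, was nearly gone at 0.374, 0.0641 and 0.066 CPM against 8.95 and 11.7 CPM, and it was also low in Map3k7 clone 7, at 0.0535 to 0.305 CPM. Of the called members, 3 of 6 desmosome and 3 of 5 luminal genes lie on chromosomes 5, 10 and 16. On these chromosomes 18.9% of all tested genes were called lower, and the part of that shift in these lists was not tested. Without the Chd1 96526 library 0 members of either list were called. Without the Chd1 96528 library 0 desmosome and 2 luminal genes were, and without the puro/neo line 3 and 6 were.

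Basal markers gave a median of -1.59 with 3 of 20 called lower (Egfr, Itgb6 and Krt6b) and 0 higher. The shares over all genes tested were 7.14% lower and 6.50% higher. The median was -0.89 without the puro/neo line and -2.37 without the control hairpin library. This list was uneven between the other control lines, whose medians were 0.33 in the puro/neo line and -0.33 in line 5. Krt14 measured 1411, 581 and 570 CPM against 4059 and 1586 CPM and did not pass the test (adjusted p = 0.075, edgeR). Trp63, the basal transcription factor gene, measured 12.5, 19.1 and 21.9 CPM against 11.8 and 5.32 CPM and did not pass either (adjusted p = 0.114, edgeR). Luminal and basal markers thus both had negative medians, while Trp63 lay above both other lines in every line 4 library. Without the Chd1 96526 or the Chd1 96528 library 0 basal markers were called, without the puro/neo line 1 was called lower and 2 higher, and without line 5 there were 7 called lower and 1 higher.

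Mesenchymal genes were called in both directions. Of 29 genes of the mesenchymal list 8 rose and 3 fell, beside 6.50% and 7.14% over all genes tested. The list median was 0.33. The repressors of epithelial genes Zeb1 and Zeb2 rose. Zeb1 measured 51.6, 61.1 and 53.7 CPM against 21.7 and 24.9 CPM (log2 1.252 ± 0.13, adjusted p = 0.0143, edgeR). Zeb2 measured 44.7, 60.6 and 66.2 CPM against 13.1 and 18.3 CPM (log2 1.86 ± 0.23, adjusted p = 0.0144, edgeR). In both genes all 3 line 4 libraries were more than 2 times either other line. Ncam1, a neural cell adhesion gene, stood at 397, 516 and 507 CPM against 203 and 200 CPM, and Fn1, the fibronectin gene, at 18159, 18257 and 15005 CPM against 10546 and 12074 CPM. Snai2, Twist1, Vim and Cdh2 did not pass the test (adjusted p from 0.09 to 0.453, edgeR), with Vim at 963, 935 and 977 CPM against 900 and 464 CPM. The members that fell were Fstl1, Foxc2 and Tpm2. Foxc2 had 0 counts in line 4 and 2.92 and 0.792 CPM in the other lines. Ncam1 and Eno2 also stand on the neuroendocrine list, where Chga, Insm1, Neurod1 and Scg3 were at 0 in all 5 libraries and Syp did not exceed 0.132 CPM. The list median was 0.65 without the puro/neo line and 0.28 without line 5, fits with a lone other line. When either Chd1 library was left out, 0 members were called higher and 1 lower.

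Matrix genes were called in both directions. Of 21 proteoglycan and glycoprotein genes 8 rose and 1 fell (median 0.62), beside 6.50% and 7.14% over all genes tested. Ltbp2, a latent TGF-beta binding protein of elastic microfibrils, measured 1181, 1627 and 1512 CPM against 383 and 407 CPM (log2 1.86 ± 0.16, adjusted p = 0.0135, edgeR). Igfbp3, which binds insulin-like growth factors, measured 159, 114 and 140 CPM against 35.5 and 15.3 CPM, and Prelp, a leucine-rich proteoglycan gene, 53, 40.8 and 50.4 CPM against 13.9 and 9.11 CPM. In Igfbp3 and Prelp the control hairpin library was the highest of the 3. Thbs1, the thrombospondin gene, was the member that fell, from 1172 and 1599 CPM in the other lines to 674, 662 and 597 CPM. Of 13 fibrillar and type VI collagen genes 1 rose (Col12a1) and 0 fell (median 0.43), close to the shares over all genes. Of 17 basement membrane genes 3 rose and 2 fell (median -0.13), and 0 were called lower without line 5. The falls were the collagen IV chains Col4a1 and Col4a2, Col4a1 at 44.6, 31 and 20.5 CPM against 86.8 and 172 CPM, and among the rises the laminin chain gene Lama4 stood at 155, 156 and 219 CPM against 57.8 and 51.4 CPM. The summed fibroblast markers, given above, were highest in the Chd1 libraries of line 4 and in the puro/neo line, and their part in the mesenchymal and matrix values was not tested. Col3a1 alone gave 93.7 and 91.1 CPM of the sums in the Chd1 libraries. Col1a1 (2.44 and 2.11 CPM) and Dcn (0 and 0.264 CPM) were lower there than in the puro/neo line (13.2 and 8.56 CPM). Of 5 fibroblast markers tested 0 were called, with a median of -0.009. Glycoprotein members called higher numbered 13 without the puro/neo line, 1 without the Chd1 96528 library and 0 without the Chd1 96526 library. Without line 5, 7 were called higher and 6 lower, and the median was 0.37, against 1.22 without the puro/neo line.

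Interferon response genes were the group with the most rises. Of 34 tested 24 rose and 0 fell in line 4, and 30 lay above both other lines in all 3 libraries (median log2 1.24, against 0.01 over all genes). The shares over all genes tested were 6.50% higher, 7.14% lower and 26.9% above both. Ifi27, an interferon-induced membrane protein gene (chromosome 12, 103434211 to 103440239), measured 47.7, 83.0 and 74.6 CPM against 6.16 and 5.49 CPM (log2 3.55 ± 0.28, adjusted p = 0.0135, edgeR). Irf7, a transcription factor that amplifies the response, measured 3.85, 5.64 and 6.47 CPM against 0.648 and 0.848 CPM (log2 2.81 ± 0.37, adjusted p = 0.0159, edgeR). The control hairpin library was above both other lines in these genes and below both Chd1 libraries, as it was in 23 of the 24 called genes. Xaf1, an apoptosis regulator induced by interferon, was nearly level within line 4 at 19.9, 24.3 and 24.8 CPM against 4.15 and 5.94 CPM. Isg15, a ubiquitin-like modifier, stayed low throughout at 1.60, 1.60 and 3.10 CPM against 0.324 and 0.396 CPM. Stat2 did not pass the test, at 31.4, 26.9 and 27.7 CPM against 21.2 and 32.7 CPM (adjusted p = 0.782, edgeR). Members called higher numbered 14 without the puro/neo line, 16 without line 5, 1 without the Chd1 96528 library and 0 without the Chd1 96526 library. The list medians of the Map3k7 clones lay between -0.54 and -0.31. With the control hairpin library alone Ifi27 was the member called.

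The promoters of interferon response genes are shown because these genes rose together and because the letters GAAANNGAA are the core of the element that IRF factors bind. The 150 bases before the start are given for the 3 called genes of smallest p whose promoters hold the motif, from RefSeq (GRCm38.p6), 5′ to 3′ on the gene's strand, with matches to GAAANNGAA on either strand in capitals.
Gbp7, chr3:142530186-142530335, plus strand: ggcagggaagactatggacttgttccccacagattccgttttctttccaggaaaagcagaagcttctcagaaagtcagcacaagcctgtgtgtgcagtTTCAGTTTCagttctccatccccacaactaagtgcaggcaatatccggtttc
Gbp3, chr3:142559894-142560043, plus strand: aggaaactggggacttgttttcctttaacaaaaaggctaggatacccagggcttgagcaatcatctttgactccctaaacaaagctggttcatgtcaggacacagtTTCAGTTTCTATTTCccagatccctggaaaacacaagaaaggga
Ifih1, chr2:62646256-62646405, minus strand: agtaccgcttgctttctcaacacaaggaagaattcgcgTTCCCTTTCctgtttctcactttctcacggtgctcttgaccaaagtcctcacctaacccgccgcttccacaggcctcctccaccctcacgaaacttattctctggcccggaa
Over 250 bases and both strands the motif was present in 10 of 26 tested interferon genes with a promoter entry (38.5%) and in 6 of the 18 called ones (33.3%), against 7.18% of tested genes and 8.18% of all genes with an entry. It was present in 11.2% of genes called higher and 7.44% of genes called lower. Gbp7 and Gbp3 lie next to each other on chromosome 3 and belong to 1 family. Gbp7, an interferon-induced GTPase gene, measured 8.70, 14 and 16.9 CPM against 2.01 and 2.38 CPM, with log2 2.58 ± 0.34.

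Antigen presentation genes, many of them interferon-inducible, were called in one direction. Of 19 MHC class I presentation genes 9 rose and 0 fell (median 0.90), beside 6.50% and 7.14% over all genes tested. Tap2, a subunit of the peptide transporter, measured 21.5, 23.7 and 22.7 CPM against 10.7 and 11.4 CPM (log2 1.03 ± 0.12, adjusted p = 0.0144, edgeR). Psmb8, an immunoproteasome subunit gene, measured 4.17, 8.14 and 7.46 CPM against 1.04 and 0.453 CPM (log2 3.15 ± 0.50, adjusted p = 0.0202, edgeR). In both genes the lowest line 4 library was well above the higher of the other lines. The class I heavy chain genes did not move alike: H2-K1 measured 93.3, 156 and 118 CPM against 93.7 and 237 CPM, and H2-D1 405, 520 and 460 CPM against 311 and 353 CPM, neither past the test (adjusted p = 0.478 and 0.061, edgeR). H2 genes are close copies of each other, and the counting divides shared reads. Members called higher numbered 6 without the puro/neo line, 8 without line 5 and 0 when either Chd1 library was left out.

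Inflammatory genes went both ways. Of 32 NF-kB targets 10 rose and 5 fell (median 0.27, and -0.06 without the puro/neo line). Over all genes tested 6.50% rose and 7.14% fell. C3, the central complement component, measured 1249, 1266 and 1440 CPM against 474 and 614 CPM, and Lcn2, an iron-binding acute-phase protein, 1212, 2248 and 2320 CPM against 528 and 600 CPM. Vcam1, an adhesion molecule for leukocytes, rose to 20.8, 16.3 and 29.4 CPM from 5.32 and 6 CPM. Ptgs2, which makes prostaglandins, measured 332, 200 and 148 CPM against 617 and 910 CPM (log2 -1.75 ± 0.34, adjusted p = 0.0283, edgeR), and the chemokine gene Ccl2 5.18, 1.22 and 0.396 CPM against 19.5 and 38.1 CPM. Members called were 0 when either Chd1 library was left out, 6 higher and 6 lower without the puro/neo line, and 14 higher and 3 lower without line 5.

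Of 29 hypoxia and glycolysis genes tested 11 rose in line 4 and 0 fell, beside 6.50% and 7.14% over all genes tested. The median was 0.57. Egln3, an oxygen-sensing prolyl hydroxylase that is itself induced by low oxygen, measured 70.8, 94.7 and 101 CPM against 15.8 and 21.8 CPM (log2 2.24 ± 0.22, adjusted p = 0.0143, edgeR). Kdm3a, a histone demethylase, measured 101, 121 and 123 CPM against 45.3 and 52.8 CPM, and Pdk1, which diverts pyruvate from the mitochondria, 96.7, 120 and 120 CPM against 33.2 and 54.3 CPM. Every line 4 library was above both other lines in these genes. The abundant targets Ldha and Vegfa did not pass the test, Ldha at 2586, 2679 and 2498 CPM against 1764 and 2802 CPM, so that line 5 was above every line 4 library. The other control lines were apart in this list, with medians of -0.33 in the puro/neo line and 0.33 in line 5, beside 0.58, 0.83 and 0.70 in line 4. The list median was 1.02 without line 5, with 20 members called higher, and 0.36 without the puro/neo line, with 8 called higher and 1 lower. Without the Chd1 96526 library 0 were called and without the Chd1 96528 library 1.

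Growth control genes fell in part, in lists to be read beside 7.14% called lower and 6.50% higher over all genes tested. Of 29 p53 targets 8 fell and 1 rose (median -0.51), among them Mdm2, the p53 ubiquitin ligase gene, at 115, 107 and 88.5 CPM against 199 and 160 CPM, and Cdkn1a, which encodes the inhibitor p21, at 86.3, 83.3 and 56.0 CPM against 145 and 119 CPM. The p53 gene Trp53 itself measured 253, 211 and 219 CPM against 229 and 215 CPM and did not pass the test. The riser was Fas, the death receptor gene, at 27.8, 25.1 and 24.8 CPM against 8.43 and 11.9 CPM. Of 15 ErbB receptor and ligand genes 6 fell and 1 rose (median -0.56), with Erbb3 at 10.36, 9.10 and 6.28 CPM against 29.0 and 34.1 CPM and Tgfa, an EGF receptor ligand gene, at 26.6, 20.5 and 16.6 CPM against 53.8 and 50.7 CPM. Of 40 DNA replication and mitosis genes 0 were called in either direction by edgeR, with a median of -0.02. The p53 targets called lower numbered 2 without the puro/neo line, 4 without line 5 and 0 when either Chd1 library was left out. The ErbB genes called lower numbered 4 without the puro/neo line, 5 without line 5, 0 without Chd1 96526 and 1 without Chd1 96528. Of the replication genes 3 were called lower without the control hairpin library.

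Some differences hardly varied within line 4. By rule, 8 called genes were named whose line 4 libraries were nearly level, taken in order of fold change and at most 1.247-fold apart. They were Syt13, Cbr2, Atp8b1, Xaf1, H2-DMb1, Entpd2, Atp6v1c2 and Pik3r5. Syt13, a synaptotagmin gene, measured 81.1, 88.6 and 86.6 CPM against 5.45 and 15.9 CPM (log2 2.99 ± 0.41, adjusted p = 0.0167, edgeR). Entpd2, an ectonucleotidase gene, measured 8.01, 7.57 and 7.79 CPM against 1.75 and 1.75 CPM (log2 2.15 ± 0.22, adjusted p = 0.0143, edgeR). Atp8b1, a phospholipid flippase gene, measured 3.15, 2.69 and 2.77 CPM against 9.53 and 18.7 CPM. In these genes the Chd1 hairpin libraries and the control hairpin library lay close together, and the rule chose them for that. All 8 were called without the puro/neo line and without line 5, and Cbr2 alone when either Chd1 library was left out.

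**Figure D4:**
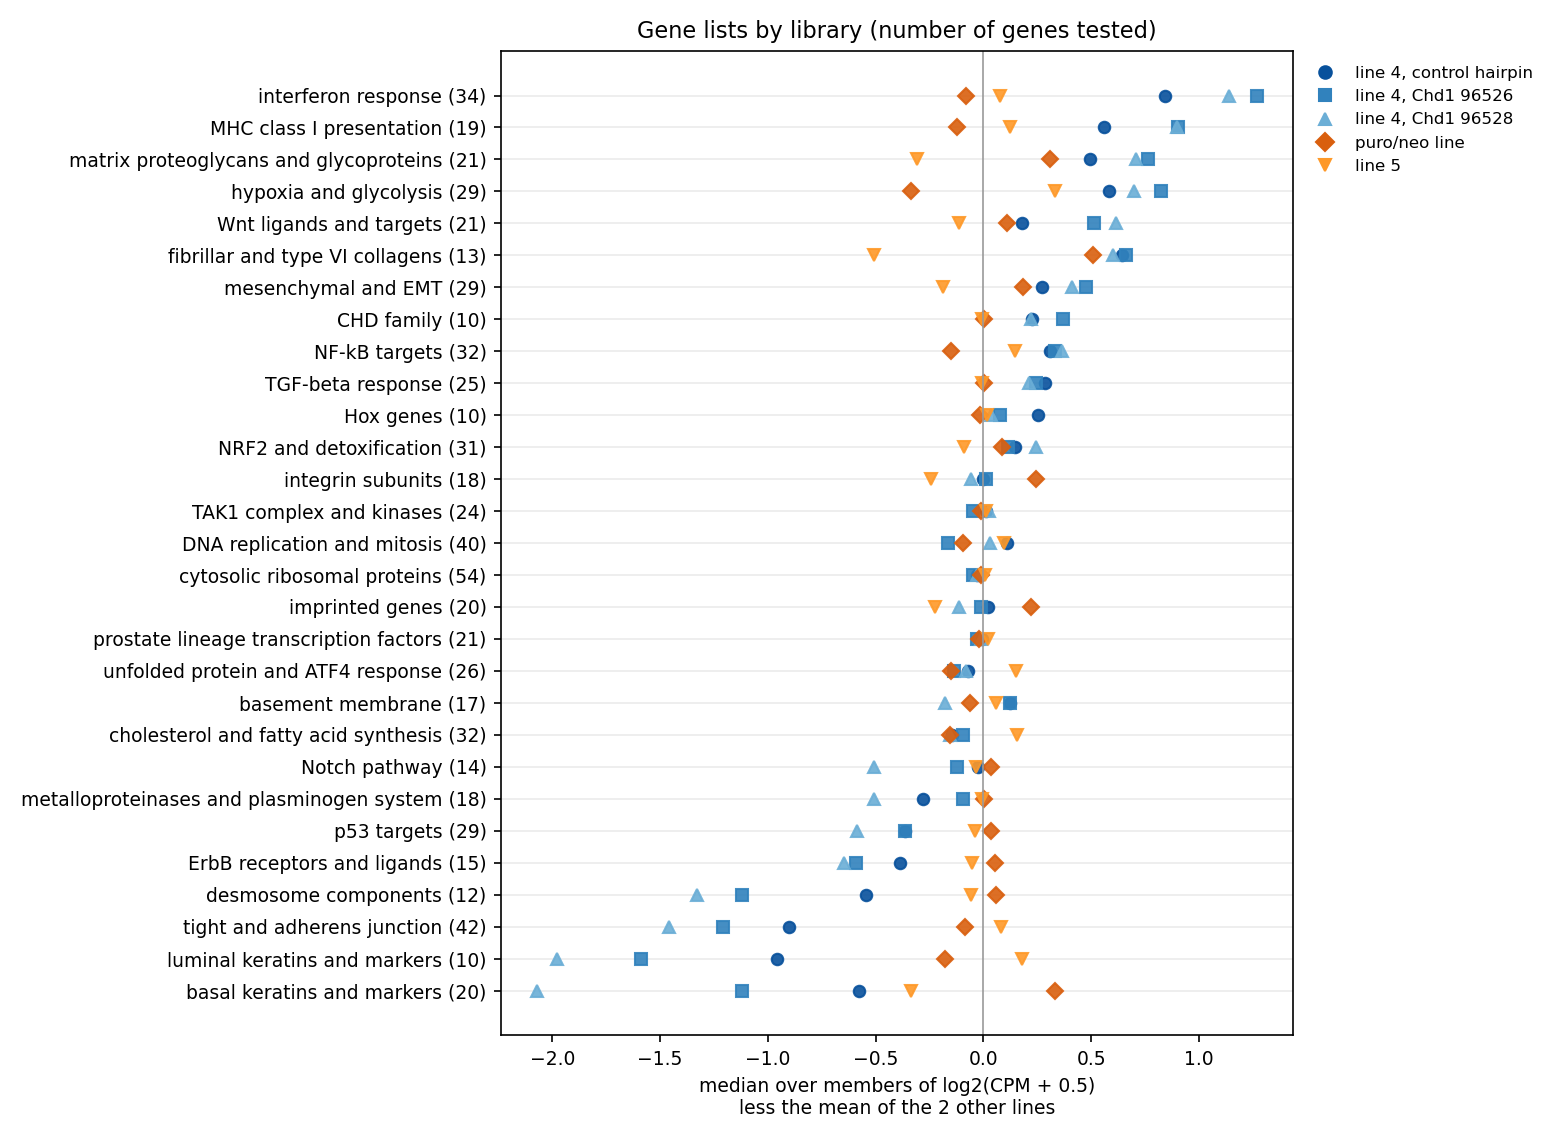
Median over the tested members of each gene list with at least 10 of them of the log2 departure from the mean of the 2 other control lines, with 1 point per library, blue for line 4 and orange for the other lines. Interferon response genes stand highest, at 0.84 to 1.27 in line 4, and the junction, luminal and basal lists lowest; the control hairpin library lies nearer to 0 than the Chd1 libraries at both ends.

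Beta protocadherins rose in part, and the counts here stand beside 6.50% called higher and 7.14% lower over all genes. Of 16 beta protocadherin genes tested 10 rose and 0 fell (median 1.97), and their summed level was 71.1, 124 and 121 CPM in line 4 against 32.7 and 20.1 CPM. Of 13 gamma protocadherins 2 rose and 0 fell, with Pcdhgc3 at 223, 290 and 270 CPM against 148 and 138 CPM. These genes are close copies or share exons, and the counting divides shared reads, so single members are uncertain and the sum is the firmer value. Imprinted genes gave 6 falls and 0 rises of 20, with a median of -0.05, which was 0.20 without the puro/neo line and -0.58 without line 5. Peg3, a paternally expressed zinc finger gene (chromosome 7, 6703892 to 6730431), measured 5.34, 2.69 and 2.18 CPM against 77.5 and 325 CPM (log2 -5.86 ± 0.69, adjusted p = 0.0144, edgeR), and its neighbour Usp29 0.801, 0.641 and 0.595 CPM against 1.43 and 5.20 CPM. Without the Chd1 96526 library or the Chd1 96528 library 0 imprinted genes were called, and without the puro/neo line 3 were called lower and 2 higher.

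The remaining lists are given by their counts, beside 13.6% called in either direction over all genes tested. They gave, higher and lower, 4 and 1 of 21 Wnt genes, 4 and 2 of 25 TGF-beta response genes, 0 and 2 of 14 Notch genes, 3 and 3 of 18 metalloproteinase and plasminogen genes, and 1 and 2 of 18 integrins. Hox genes gave 2 and 0 of 10, prostate lineage factors 1 and 2 of 21, NRF2 targets 3 and 1 of 31, cholesterol and fatty acid genes 1 and 3 of 32, unfolded protein and ATF4 genes 3 and 4 of 26, and ribosomal proteins 0 and 2 of 54. Of 24 genes of the TAK1 complex and its kinases Mapk13 alone was called, lower, and of 10 CHD family genes Chd2 alone, higher, at 118, 134 and 142 CPM against 85.3 and 94.9 CPM. Gata3, a lineage transcription factor gene, was even within line 4 at 98.6, 101 and 109 CPM against 45.6 and 38.3 CPM (log2 1.3 ± 0.12, adjusted p = 0.0135, edgeR). Wnt7a, a Wnt ligand, measured 2.51, 0.192 and 0.066 CPM against 14.6 and 22.3 CPM, and Dll1, a Notch ligand, 12.9, 7.05 and 3.17 CPM against 48.6 and 42.4 CPM. In both ligands the Chd1 libraries were below the control hairpin library, which was itself below the other lines. Leaving out the puro/neo line gave 8 lower calls among cholesterol genes and 5 higher calls among the collagens, and leaving out line 5 gave 3 lower calls among Hox genes. With the puro/neo line as the only other line, 6 endothelial markers were called lower, the library in which they stood apart. None of the line 4 calls named in this list of pathways held without the Chd1 96526 library.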

How the data were processed

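Messenger RNA was captured with oligo(dT) and sequenced in 11 libraries, and 5 entered the comparison. The authors deposited expected counts per gene, not normalized, and per the submitters' processing notes they used Bowtie2, RSEM 1.3.1 and limma with the mouse build GRCm38; annotation and strand setting: not given in the sources used here. A deposited normalized table was not used. Expected counts were rounded to whole numbers. Genes passed filterByExpr (minimum count 10, minimum total 15). edgeR 4.0.16 in R 4.3.3 gave TMM factors, a mean per group and the quasi-likelihood F-test, with Benjamini-Hochberg adjustment over 13672 genes and a threshold of 0.05. SE values were derived from the F statistic. CPM values are TMM-scaled. Departures use log2(CPM + 0.5). Coordinates come from GENCODE, matched by symbol for 13507 genes, counted from 1.

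Reads carried no molecular identifiers. In a library 3 counts correspond to 0.137 to 0.224 CPM. Where line 4 had 0 counts, the bound uses 3 counts over the group; with 1 to 3 counts a 95% counting interval is given. Named genes are Map3k7 and Chd1, the 12 largest rises and falls, up to 5 called and 2 other members of each list by p, 8 genes even within line 4, and neighbours of shifted regions; further genes outside this rule (Odc1, Dclk1 and Cdon, further list members, the protocadherins and cell type markers) were chosen after their values were seen. The members and the 36 gene lists were chosen with earlier results of these data known. Dates stood in place of 16 tested symbols, which were not named. The fits were also run on simulated independent libraries with the same spread for every gene. The line 4 libraries are branches of 1 clone, so that run does not check these calls. Alternatives were DESeq2 1.42.0, limma-voom 3.58.1, other normalization and filters, all 11 libraries with and without the Chd1 construct as a block, and each library left out. Values of some genes are not reported here.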

Additional observations from a re-analysis of the deposited data

How the results depend on the processing

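The count of 1865 calls (889 higher, 976 lower, 1865 separated) stayed within 1.5 times under RLE factors, both other filters and limma-voom. DESeq2 gave 2891 (1361 higher, 1530 lower, 2876 separated). All 11 libraries with a mean per line gave 4431 (2072, 2359, 4357). With the Chd1 construct as a replicate block the count was 2297 (964 higher, 1333 lower, 2293 separated), 1704 of the 1865 calls among them. Same-construct libraries of line 4 and the Map3k7 clones shared deviations from their line means only weakly (r from -0.082 to 0.154 across genes). The labels give them a shared construct, and whether they share more was not tested. The control hairpin library alone gave 10 (7 higher, 3 lower, 10 separated). Leaving out 1 library gave 4 to 2301 calls (1 to 1011 higher, 3 to 1290 lower, 4 to 2301 separated). For the Chd1 hairpins within line 4 the count was 71 with DESeq2 and 4 with no filter on low counts, and 0 to 195 when a library was left out; the cause was not tested. No called gene of those named changed sign. The 5 libraries leave 3 residual degrees of freedom, so only large or even differences can pass, and genes near 3 counts are limited by depth.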
